A study of Mus musculus with 8 samples.

Results

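The alpha-, beta- and gamma-tubulin genes were picked by gene symbol from transcript tables of the mouse hepatocyte line AML12. The 10 genes described in full were Tuba1a, Tuba1b, Tuba1c and Tuba4a (alpha), Tubb2a, Tubb2b, Tubb4b, Tubb5 and Tubb6 (beta) and Tubg1 (gamma), out of 55401 genes in the tables. A search of the symbols for all protein-coding members of the 3 classes gave 18 genes, 8 alpha, 8 beta and 2 gamma, of which 12 were abundant enough to test (the 10 listed genes, Tubb4a and Tubg2). RNA was sequenced from 4 control dishes and from 4 dishes exposed for 1 h to Opti-ELF-WMF, an extremely low-frequency weak magnetic field with a peak of 100 mG, pulses of 4 ms and pulse frequencies from 1 to 8 Hz. No gene was altered in either group, and the dishes of both groups came from 1 batch of cells and were held between copper plates. Control dishes stood in another incubator of the same model with the stimulator off, so the field and the incubator cannot be told apart, and the p-values measure only the spread between dishes of 1 batch. The values are TPM (transcript abundances), which are corrected for transcript length and sum to the same total in every dish, so the sequencing depth is unknown. In these bulk samples a different number of cells of 1 kind and a different amount of RNA per cell cannot be told apart.

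Microtubules are hollow polymers of alpha- and beta-tubulin heterodimers, and gamma-tubulin sits in the ring complex from which they are nucleated. Mammalian cells carry several genes for alpha- and beta-tubulin, called isotypes, whose proteins are very similar and differ most at the C-terminal tail, where many modifications are placed. In hepatocytes microtubules carry secretory vesicles and mitochondria and help to maintain the bile canaliculus. The amount of tubulin mRNA is also under feedback: free tubulin promotes decay of tubulin messages that are being translated, through Ttc5, which binds the first residues of the new chain, and the CCR4-NOT deadenylase.

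The sequences that encode these first residues are shown because the alpha and beta classes differ there. The first 12 coding bases are in capitals and the next bases, to 30 in all, in lower case, read 5′ to 3′ from the GENCODE M21 transcripts of GRCm38.
Tuba1a coding start: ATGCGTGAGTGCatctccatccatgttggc
Tuba1b coding start: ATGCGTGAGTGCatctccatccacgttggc
Tuba1c coding start: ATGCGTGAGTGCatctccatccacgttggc
Tuba4a coding start: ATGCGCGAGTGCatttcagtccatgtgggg
Tubb2a coding start: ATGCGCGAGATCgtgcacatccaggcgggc
Tubb2b coding start: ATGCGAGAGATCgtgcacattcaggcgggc
Tubb4b coding start: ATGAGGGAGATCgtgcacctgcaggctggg
Tubb5 coding start: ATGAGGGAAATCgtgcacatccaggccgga
Tubg1 coding start: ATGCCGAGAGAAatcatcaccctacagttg
Tuba1a, Tuba1b and Tuba1c were identical over the first 12 bases, and Tuba4a differed from Tuba1b at 1 of them. Tubb5 differed from Tuba1b at 5 and from Tubb4b at 1. Tubg1, which is not a subunit of the heterodimer, differed from Tuba1b at 8 and from Tubb5 at 7. Over the whole coding sequence Tuba1a and Tuba1b were 98.3% identical, Tuba1b and Tuba1c 97.9%, Tuba1a and Tuba1c 97.1% and Tubb2a and Tubb2b 96.5%.

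This likeness limits how well reads can be assigned. Of all stretches of 150 bases, the read length, 57.9% in Tuba1b, 54.7% in Tuba1a and 46.7% in Tuba1c also occurred in the transcript of another gene. Those genes were the other 2 of the 3 and 7 further loci, 6 of them annotated as processed pseudogenes. Tubb2a shared 27.9% and Tubb2b 20.1% of their stretches, with each other and with Tubb2a-ps2, and Tubb4b shared 16.8% with Tubb4b-ps1. Tuba4a, Tubb5 and Tubb6 shared 0.0%. Stretches were counted singly although the reads were paired, and the share of ambiguous read pairs was not computed. The 7 loci with alpha-tubulin sequence were listed at 130.9 to 152.2 TPM in sum, mostly Gm3226 (78.21 to 89.48 TPM) and Gm14150 (36.83 to 47.6 TPM). The split of TPM within the group of Tuba1a, Tuba1b, Tuba1c and these copies, and between Tubb2a and Tubb2b, is therefore uncertain, and sums over these genes are given beside the single values.

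The genes of the first group lie close together on chromosome 15 of GRCm38, Tuba1b at 98931425 to 98934565 and Tuba1a at 98949837 to 98953703 on the minus strand and Tuba1c at 99029891 to 99038110 on the plus strand. Tubb2a (34074274 to 34078007) and Tubb2b (34126748 to 34130466) are neighbors on the minus strand of chromosome 13. Tuba4a lies on chromosome 1 (75214228 to 75219865), Tubb4b on chromosome 2 (25222160 to 25224702), Tubb5 on chromosome 17 (35833921 to 35838306), all 3 on the minus strand, and Tubg1 on the plus strand of chromosome 11 (101119938 to 101126419).

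The promoters of 4 genes are shown: those of the most abundant alpha and beta isotypes, of the isotype with the largest difference after exposure (Tuba4a), and of the isotype with the smallest (Tubb4a). Each run is a RefSeq window on GRCm38.p6 from 250 bases before the annotated start of transcription to 50 after it, written 5′ to 3′ on the strand of the gene. Capitals mark the word CCAAT on either strand, the word GGGCGG on either strand and the word TATAAA on either strand.
Tuba1b promoter, chr15:98934341-98934640, minus strand: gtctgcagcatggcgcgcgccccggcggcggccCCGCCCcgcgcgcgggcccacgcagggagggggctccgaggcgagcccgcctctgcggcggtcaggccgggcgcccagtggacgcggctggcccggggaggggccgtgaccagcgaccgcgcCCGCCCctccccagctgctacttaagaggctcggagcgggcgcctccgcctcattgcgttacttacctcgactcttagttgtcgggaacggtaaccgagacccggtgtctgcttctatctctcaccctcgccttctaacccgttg
Tubb5 promoter, chr17:35838252-35838551, minus strand: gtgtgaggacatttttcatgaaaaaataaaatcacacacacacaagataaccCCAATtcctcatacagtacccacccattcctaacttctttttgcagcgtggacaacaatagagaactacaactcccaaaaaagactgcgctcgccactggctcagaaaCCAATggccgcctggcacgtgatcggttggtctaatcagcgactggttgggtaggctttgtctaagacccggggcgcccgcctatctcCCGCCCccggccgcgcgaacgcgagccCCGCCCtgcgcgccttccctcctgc
Tuba4a promoter, chr1:75219245-75219544, minus strand: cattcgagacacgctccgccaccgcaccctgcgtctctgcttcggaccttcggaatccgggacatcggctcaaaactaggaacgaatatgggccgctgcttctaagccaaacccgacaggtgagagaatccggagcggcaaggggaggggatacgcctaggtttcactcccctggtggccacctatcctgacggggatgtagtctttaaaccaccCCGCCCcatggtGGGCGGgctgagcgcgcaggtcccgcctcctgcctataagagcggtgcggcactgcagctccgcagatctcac
Tubb4a promoter, chr17:57087551-57087850, minus strand: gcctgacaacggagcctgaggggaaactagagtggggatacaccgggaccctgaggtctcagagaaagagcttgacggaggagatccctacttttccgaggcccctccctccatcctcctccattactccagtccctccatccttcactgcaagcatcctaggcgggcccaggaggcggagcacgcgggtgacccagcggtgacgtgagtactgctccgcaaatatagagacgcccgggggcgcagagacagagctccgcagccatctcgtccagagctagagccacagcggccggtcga
Among the 9 tested tubulins whose windows were searched, 4 held CCAAT, 6 held GGGCGG and 2 held TATAAA. Of 32851 promoters of the same length, 37.4% held CCAAT, 35.7% GGGCGG and 13.6% TATAAA. The Tuba1b window held GGGCGG at 2 places, the Tuba4a window at 2, the Tubb5 window CCAAT at 2 and GGGCGG at 2, and in the Tubb4a window none of the 3 words was found. These are matches of letters and say nothing about binding.

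The dishes carried the RNA of hepatocyte-like epithelial cells. Of 11 hepatocyte markers, Krt8 (2248 ± 31.1 TPM in control dishes, SD, n = 4), Krt18, Trf, Ttr, Apob and Hnf4a were abundant and Alb was present at 55.1 ± 2.67 TPM, while Serpina1a (5.66 TPM) and Apoa1 (4.54 TPM) were low and Afp (1.03 TPM) and Fgb (0.105 TPM) near 0. The summed level of the 11 was 5627 to 5885 TPM in control and 5972 to 6194 TPM in exposed dishes. Most of that difference lay in the keratins Krt18 (1905 ± 58.0 TPM in control and 2029 ± 33.6 TPM in exposed dishes) and Krt8 (2361 ± 52.6 TPM in exposed dishes), whereas the means of Alb (49.7 ± 3.14 TPM in exposed dishes), Ttr (358.3 ± 20.6 and 348.4 ± 13.3 TPM) and Apoa1 (3.77 ± 0.755 TPM in exposed dishes) were lower after exposure. The part of these markers in the tubulin results was not tested. The cholangiocyte markers Krt19 (1153 ± 37.4 TPM in control dishes), Krt7 (70.4 ± 4.96 TPM) and Sox9 (30.8 ± 0.924 TPM) were present as well. Epcam and Cftr were under 1 TPM in all 8 dishes. The summed level of these 5 markers was 1204 to 1291 TPM in control and 1219 to 1340 TPM in exposed dishes. Markers of endothelium (at most 0.08 TPM summed), fibroblasts or stellate cells (at most 1.97), leukocytes or Kupffer cells (at most 2.34) and neurons (at most 1.22) were at or near 0. Genes of the mitochondrial genome held 8.69 to 9.42% of TPM in control and 5.99 to 7.69% in exposed dishes, and since TPM has a fixed total, this difference alone raises the values of all other genes. The log2 fold changes with these genes left out of the total are given after those of the deposited TPM.

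AML12 cells expressed 12 of the 18 tubulin genes at levels high enough to test. Tuba1b was the most abundant tubulin at a mean of 1490 TPM over the 8 dishes, 1.73 times the next, Tubb5 (860.7 TPM). Tubb4b (835.9 TPM), Tuba1c (573.2 TPM), Tuba4a (359.7 TPM), Tuba1a (238.2 TPM) and Tubb6 (223.0 TPM) followed, then Tubb2a (101.5 TPM), Tubg1 (96.96 TPM) and Tubb2b (60.3 TPM). Among neighbors in this order, the ranges of Tubb5 and Tubb4b overlapped in both groups, although Tubb5 was higher within each of the 8 dishes, and so did those of Tubb2a and Tubg1, with Tubb2a higher in 7 of 8 dishes. All other neighbors were separated in both groups. Tubb4a, known mainly from the brain, was at 9.31 ± 0.588 TPM (SD, n = 4) in control dishes, and Tubg2, the second gamma-tubulin gene, at 4.43 ± 0.402 TPM. The other 6 genes were under 1 TPM in every dish, with a highest value of 0.26 TPM: Tuba3a and Tuba3b, known from testis, Tuba8, Tubal3, Tubb1 of platelets and Tubb3 of neurons. Delta-tubulin Tubd1 (4.79 ± 0.208 TPM) and epsilon-tubulin Tube1 (5.19 ± 0.314 TPM), which act at centrioles, were low, and 4 tubulin pseudogenes and related entries reached at most 0.61 TPM.

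**Figure D1:**
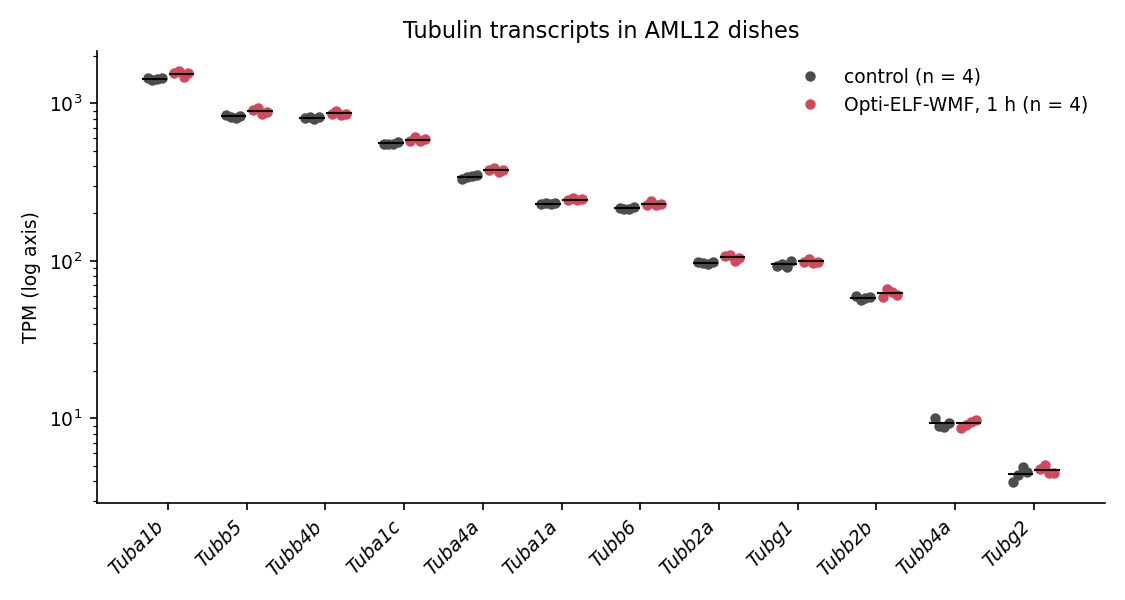
TPM (log axis) of the 12 tested tubulin genes in each of 4 control and 4 Opti-ELF-WMF dishes, 1 point per dish, with a black line at the mean of each group of 4. Levels run from Tuba1b, near 1490 TPM, to Tubg2, near 4.5 TPM, and the difference between genes is far larger than that between groups.

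As shares of alpha-tubulin TPM, control dishes had 56.0 ± 0.394% Tuba1b, 21.7 ± 0.101% Tuba1c, 13.3 ± 0.316% Tuba4a and 9.01 ± 0.0941% Tuba1a (SD, n = 4). Exposed dishes had 56.0 ± 0.442%, 21.4 ± 0.321%, 13.7 ± 0.0802% and 8.90 ± 0.151% of the same genes. The Tuba4a share was the only share of the 4 whose groups did not overlap, with 12.85, 13.41, 13.39 and 13.58% in control and 13.77, 13.66, 13.79 and 13.63% in exposed dishes. The gap, from 13.58 to 13.63%, was small beside the control SD. The alpha sum also leaves out the 7 copies, at a mean of 134.3 TPM in control and 148.3 TPM in exposed dishes. The share with these copies in the sum was not computed. Of beta-tubulin TPM, Tubb5 held 41.0 ± 0.261% in control and 41.3 ± 0.489% in exposed dishes, and Tubb4b 40.1 ± 0.336% and 39.9 ± 0.314%. Tubb6 held 10.7 ± 0.127% and 10.65 ± 0.168%, Tubb2a 4.84 ± 0.0204% and 4.87 ± 0.102%, Tubb2b 2.89 ± 0.0579% and 2.88 ± 0.110%, and Tubb4a 0.462 ± 0.0262% and 0.429 ± 0.0295%. The groups overlapped for all of these beta shares. Tubg1 made up 95.5 ± 0.424% of gamma-tubulin TPM in control and 95.5 ± 0.158% in exposed dishes. Shares within a dish do not depend on the total to which TPM is scaled.

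**Figure D2:**
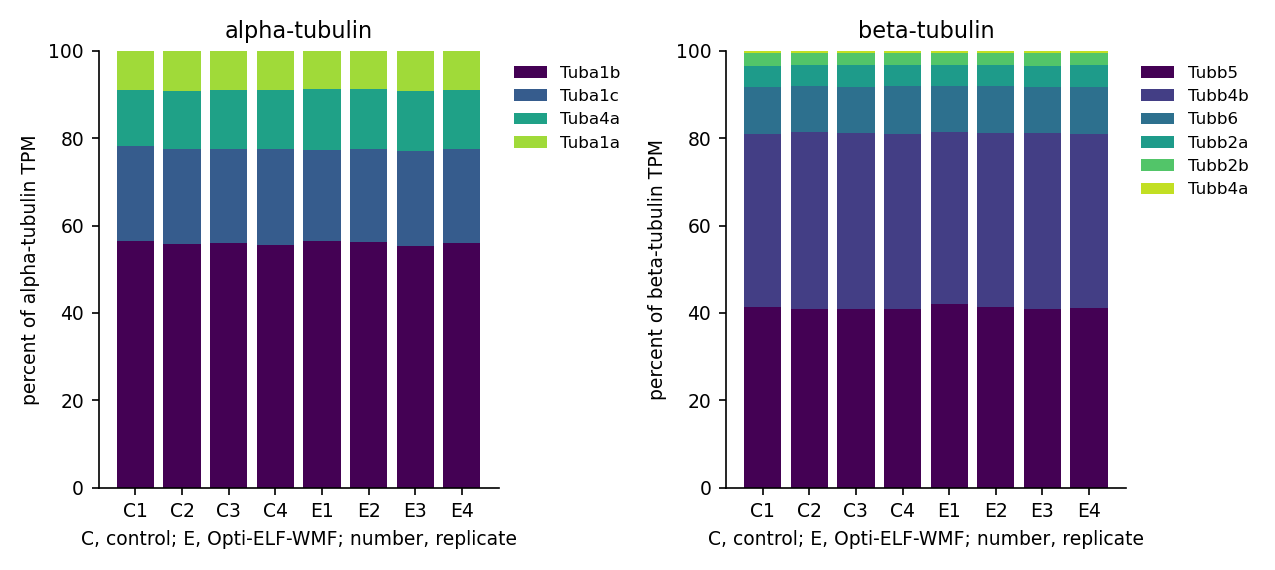
Share of each isotype in the summed TPM of alpha-tubulin (left) and beta-tubulin (right), in percent, with 1 stacked bar per dish (C, control; E, Opti-ELF-WMF). The composition looks alike in the 8 dishes, with Tuba1b at 55.4 to 56.5% of alpha and Tubb5 at 40.8 to 42.0% of beta.

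The summed alpha-tubulin message was 2563, 2541, 2568 and 2593 TPM in control and 2750, 2846, 2663 and 2766 TPM in exposed dishes. Every exposed dish lay above every control dish, and the mean was 7.41% higher. Summed beta-tubulin was 2026, 2016, 1987 and 2035 TPM in control and 2162, 2252, 2110 and 2139 TPM in exposed dishes, again without overlap and 7.42% higher. The ratio of alpha to beta TPM was 1.27 ± 0.0142 in control and 1.27 ± 0.0143 in exposed dishes (SD, n = 4). As a share of the TPM outside the mitochondrial genome, alpha and beta tubulins together were 0.503 ± 0.00375% in control and 0.529 ± 0.0104% in exposed dishes, 5.21% higher and still without overlap. The gamma sum was 99.3 ± 3.62 TPM in control and 103.8 ± 2.67 TPM in exposed dishes, and the groups overlapped.

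The comparison of single genes asked which isotypes differed after 1 h. No tubulin gene, and 0 of 12122 tested genes (0.0%), passed an adjusted p of 0.05 (limma on log2(TPM + 1), Benjamini-Hochberg over all tested genes). At an unadjusted p under 0.05, 9 of the 10 listed tubulins were higher after exposure and 0 were lower, against 12.0% of all tested genes higher and 3.65% lower. The listed gene above that level was Tubg1. Over all 12 tested tubulins the count was again 9. With Tuba1a, Tuba1b and Tuba1c summed before the fit, and Tubb2a and Tubb2b likewise, it was 6 of 9, against 11.9% of all genes in that fit. In 8 of the 10 every exposed dish lay above every control dish, against 8.01% of tested genes, and all 10 had a higher mean, against 63.7%. Abundant genes did so more often than the rest: among 3311 genes with a mean of at least 50 TPM, a limit chosen after the data were seen, 83.1% had a higher mean, 28.8% were higher at an unadjusted p under 0.05 and 19.1% had no overlap. All 10 listed tubulins are in that abundant group. The median log2 fold change was 0.096 over the listed tubulins, 0.051 over the abundant genes and 0.026 over all tested genes.

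Tuba1b, the most abundant alpha isotype, was at 1448, 1417, 1438 and 1441 TPM in control dishes and at 1552, 1599, 1475 and 1549 TPM in exposed dishes. The groups did not overlap, and the third exposed dish was nearest to the controls. The log2 fold change was 0.10 ± 0.027 (SE), with an unadjusted p of 0.00319 and an adjusted p of 0.136.

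Tuba1c was at 556.2, 550.5, 555.7 and 566.8 TPM in control and 575.7, 609.1, 577.8 and 593.9 TPM in exposed dishes. Its second exposed dish stood highest, and all exposed dishes were above the controls (log2 fold change 0.08 ± 0.024, adjusted p = 0.173).

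Tuba1a, the main alpha isotype of developing neurons, was at 229.4, 232.5, 230.4 and 232.5 TPM in control and 243.4, 248.9, 242.4 and 245.7 TPM in exposed dishes. The groups were narrow and separate, with a log2 fold change of 0.08 ± 0.020 and an adjusted p of 0.130. Summing Tuba1a, Tuba1b and Tuba1c before the fit, which leaves the uncertain split aside, gave a log2 fold change of 0.10 ± 0.025 (adjusted p = 0.136). With the 7 copies in the sum as well, an alternative added after the data were seen, it was 0.10 ± 0.025 (adjusted p = 0.132).

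Tuba4a, an alpha isotype that is translated without the C-terminal tyrosine, had the largest difference among the tubulins. It was at 329.4, 340.6, 343.8 and 352.1 TPM in control and 378.6, 388.9, 367.2 and 376.9 TPM in exposed dishes, 10.7% higher on average. Its lowest exposed dish was above its highest control dish. The log2 fold change was 0.15 ± 0.028 (95% interval 0.08 to 0.21), with an unadjusted p of 0.000392 and an adjusted p of 0.122. Over all alternative settings it lay between 0.11 and 0.16, with adjusted p between 0.109 and 0.277. Tuba4a shared none of its stretches with other genes, so the uncertainty of the Tuba1 group does not touch its TPM. Its share of alpha-tubulin TPM does depend on which genes are summed.

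Among the beta isotypes Tubb5, a broadly expressed isotype, was at 838.7, 823.9, 813.0 and 830.8 TPM in control and 908.1, 930.2, 861.8 and 879.7 TPM in exposed dishes. The exposed dishes were all higher, and they spread more widely than the controls (SD 30.3 against 10.9 TPM). The log2 fold change was 0.11 ± 0.027 (unadjusted p = 0.00202, adjusted p = 0.126).

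Tubb4b, a widely expressed isotype abundant in ciliated cells, was at 803.6, 815.6, 798.9 and 817.1 TPM in control and 853.5, 896.3, 848.9 and 853.4 TPM in exposed dishes. Apart from the second exposed dish the exposed values were close together, and none overlapped the controls (log2 fold change 0.09 ± 0.024, adjusted p = 0.134).

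Tubb6 was at 215.6, 212.9, 212.2 and 221.0 TPM in control and 224.8, 241.3, 226.4 and 230.0 TPM in exposed dishes. The gap between the groups was smaller than for Tubb5, but they did not overlap (log2 fold change 0.10 ± 0.028, adjusted p = 0.161).

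Tubb2a was at 98.55, 97.62, 96.08 and 97.96 TPM in control and 107.8, 109.1, 100.01 and 104.8 TPM in exposed dishes. All exposed dishes were above the controls, the third by little (log2 fold change 0.11 ± 0.031, adjusted p = 0.153). Its neighbor Tubb2b was at 59.78, 56.74, 57.95 and 58.63 TPM in control and 59.27, 65.84, 63.27 and 61.01 TPM in exposed dishes. Here the first exposed dish lay inside the control range (log2 fold change 0.10 ± 0.037, unadjusted p = 0.0278, adjusted p = 0.251). Summed before the fit, Tubb2a and Tubb2b had a log2 fold change of 0.11 ± 0.027 (adjusted p = 0.134).

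Tubg1, the main gamma-tubulin, was at 92.29, 95.93, 91.68 and 99.40 TPM in control and 98.95, 102.4, 96.80 and 98.15 TPM in exposed dishes. Only the second exposed dish was above all controls. The log2 fold change was 0.06 ± 0.033 (95% interval -0.01 to 0.14, unadjusted p = 0.0850, adjusted p = 0.396).

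The other tested genes, Tubb4a and Tubg2, were low. Tubb4a was at 10.11, 8.95, 8.80 and 9.39 TPM in control and 8.73, 9.07, 9.46 and 9.82 TPM in exposed dishes, fully overlapping (log2 fold change -0.01 ± 0.059, 95% interval -0.14 to 0.13). Tubg2 was at 3.93, 4.36, 4.90 and 4.53 TPM in control and 4.79, 5.08, 4.51 and 4.49 TPM in exposed dishes (log2 fold change 0.08 ± 0.074, 95% interval -0.09 to 0.24). Both intervals hold 0.096, the median of the listed tubulins, so a difference of that size was not resolved. Tubd1 had a log2 fold change of 0.04 ± 0.064 and Tube1 one of -0.10 ± 0.083.

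**Figure D3:**
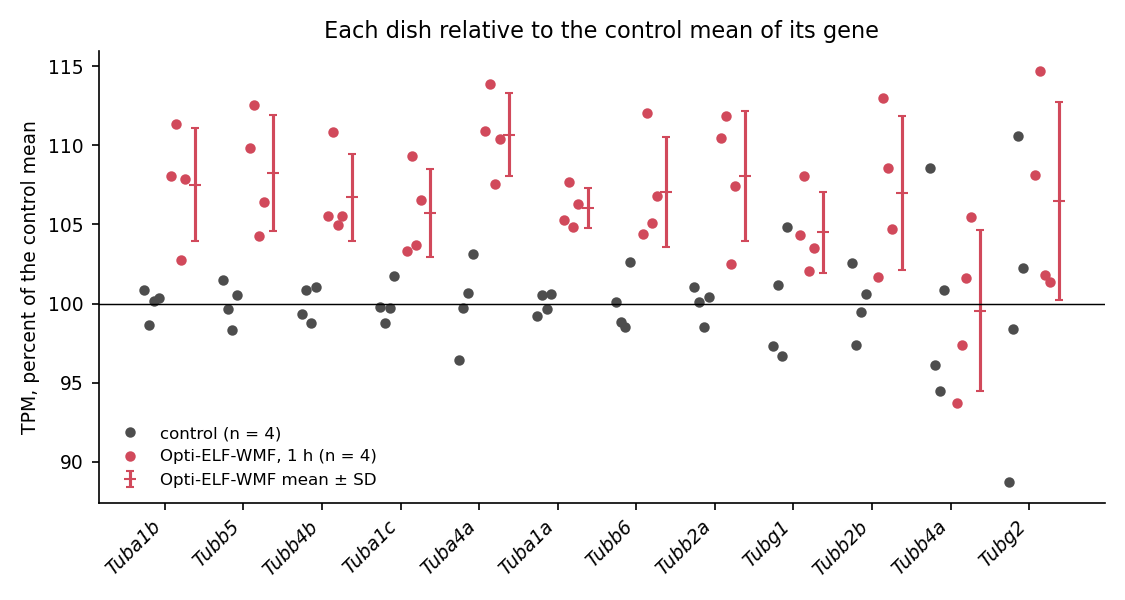
TPM of each dish as a percentage of the control mean of its gene, for the 12 tested tubulins in 4 control and 4 Opti-ELF-WMF dishes, 1 point per dish, with the exposed mean and SD beside the points. Exposed means of the 10 listed genes lie 4.49 to 10.7% above the control mean, while Tubb4a sits at it and the low-abundance genes Tubb4a and Tubg2 scatter most.

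The exposed dishes did not stand equally high. The second was the highest exposed dish for all 10 listed genes, and the lowest was the third for 7 genes and the first for 3. The second exposed dish also had the lowest mitochondrial share of TPM (5.99%) and the third the highest of the exposed (7.69%). Of the TPM outside the mitochondrial genome, alpha and beta tubulins held 0.528, 0.542, 0.517 and 0.530% in the exposed dishes in order. The second was thus still the highest and the third the lowest. The part of the mitochondrial share in this order was not tested. Without the second exposed dish the median log2 fold change of the 12 tested tubulins was 0.075, against 0.094 with it. Then 8 in place of 9 were higher at an unadjusted p under 0.05, and of all tested genes 8.79% in place of 12.0%.

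Scaling moved the sizes but not the directions of the listed genes. With TPM rescaled after removal of the mitochondrial genes, the median over the 12 tubulins was 0.065 and that of all genes -0.002. In that fit 8 tubulins were higher at an unadjusted p under 0.05, against 5.72% of all genes. Tuba4a then had a log2 fold change of 0.12 (adjusted p = 0.227), Tuba1b 0.07 (0.282), Tuba1a 0.05 (0.320) and Tuba1c 0.05 (0.427). Among the beta isotypes Tubb5 was at 0.08 (adjusted p = 0.239), Tubb4b at 0.06 (0.283), Tubb2a at 0.08 (0.320), Tubb6 at 0.07 (0.351) and Tubb2b at 0.07 (0.529). Tubg1 was at 0.03 (adjusted p = 0.747), Tubg2 at 0.05 (0.854) and Tubb4a at -0.03 (0.900). Median-of-ratios scaling gave a tubulin median of 0.072, with 9 tubulins higher at that unadjusted level against 6.79% of all tested genes. Upper-quartile scaling gave 0.061, with 8 against 4.85%. The tubulin median stood 0.068 above that of all genes with TPM as deposited and 0.066 to 0.067 above it under these 3 scalings. Each scaling multiplies all genes of a dish by 1 factor, so this gap could hardly change and is no check of the result. Against the abundant genes, whose median was 0.051 with TPM as deposited, the gap was smaller. Of all tested genes with an unadjusted p under 0.05, 76.6% were higher after exposure with TPM as deposited, 55.2% after median-of-ratios scaling, 50.7% without the mitochondrial genes and 42.3% after upper-quartile scaling.

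**Figure D4:**
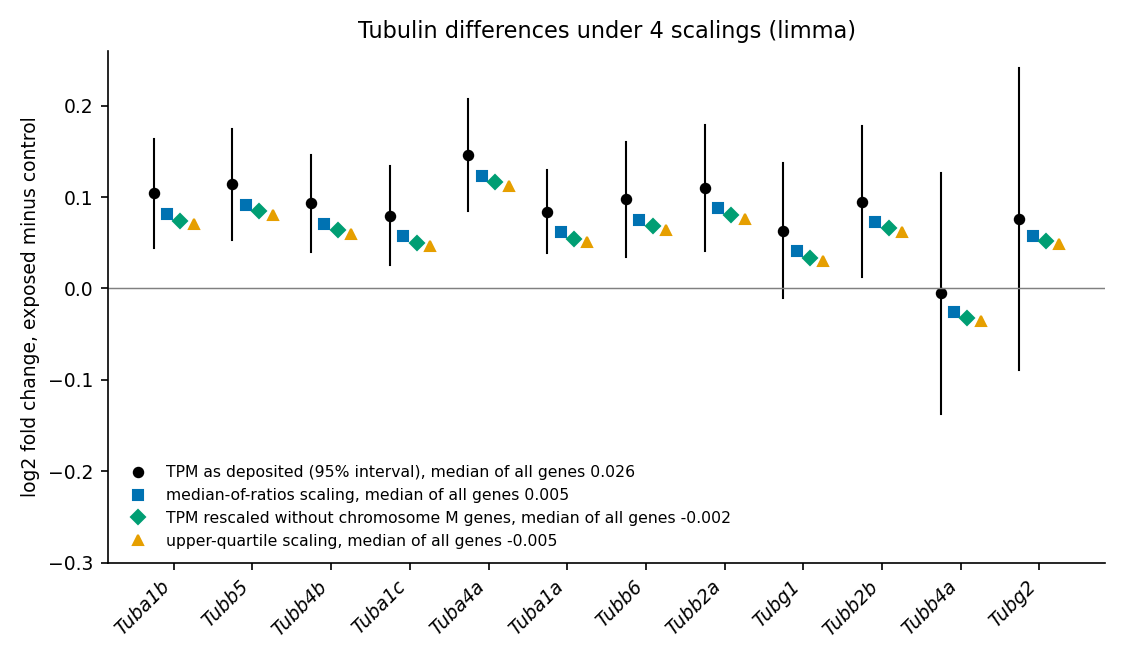
Log2 fold change (exposed minus control, limma) of the 12 tested tubulins with TPM as deposited, with 95% intervals, and under 3 other scalings, given as points without intervals. The 10 listed genes stay above 0 under each, Tuba4a highest at 0.11 to 0.15, and Tubb4a stays slightly below 0.

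Across the 8 dishes, which share the group difference and the TPM total, the genes whose log2(TPM + 1) followed Tuba1b most closely were Rpn1 (Pearson's r = 0.981), an oligosaccharyltransferase subunit, and Utp6 (0.977) and Bysl (0.976) of ribosome biogenesis. For Tubb5 they were Pgd (0.989), of the pentose phosphate pathway, Tubb2a (0.986) and Naca (0.982), of the nascent polypeptide-associated complex. Tuba1b and Tubb5 had r = 0.965 with each other. Each r is over 8 dishes and is given as a description.

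Newly made alpha- and beta-tubulin are folded by the chaperonin TRiC, to which prefoldin delivers them. All 14 listed subunits of these complexes were tested: 13 were higher and 1 lower after exposure, 10 higher at an unadjusted p under 0.05, with a median log2 fold change of 0.091. Thus 92.9% were higher and 71.4% higher at that level, against 63.7% and 12.0% of all tested genes and, since 13 of the 14 have a mean of at least 50 TPM, 83.1% and 28.8% of the abundant genes. Cct8 went from 280.7 ± 3.93 to 304.6 ± 6.28 TPM (mean ± SD, n = 4; log2 fold change 0.12, adjusted p = 0.122), Cct7 from 422.5 ± 9.03 to 456.5 ± 10.5 TPM (0.11, adjusted p = 0.122) and Cct2 from 414.9 ± 3.37 to 441.8 ± 9.30 TPM (0.09, adjusted p = 0.131). These 3 have the smallest p of the list, and in each the groups did not overlap. In 8 of the 14 every exposed dish lay above every control dish, against 8.01% of tested and 19.1% of abundant genes.

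The cofactors that assemble the heterodimer were mixed, with 6 of 8 higher, 2 lower and 3 higher at an unadjusted p under 0.05 (median 0.058). These are 75.0% higher and 37.5% at that level, against 63.7% and 12.0% of all tested genes and 83.1% and 28.8% of the abundant genes, to which 4 of the 8 belong. Tbcd, which holds beta-tubulin, was at 37.1 ± 2.48 TPM in control and 41.6 ± 2.03 TPM in exposed dishes without overlap (log2 fold change 0.16, adjusted p = 0.194). Tbcb, which binds alpha-tubulin, was at 121.4 ± 7.58 and 134.9 ± 7.67 TPM (0.15, adjusted p = 0.210), and Tbcc, which releases the heterodimer, at 19.6 ± 1.52 and 21.9 ± 1.17 TPM (0.15, adjusted p = 0.257). Tbce, another alpha-tubulin cofactor, had a log2 fold change of -0.11 (adjusted p = 0.352). Tbca, a beta-tubulin cofactor, was at 0.05, Tbcel, which destabilizes tubulin, at 0.06, Arl2, a GTPase partner of Tbcd, at 0.02 and Pdcl3, a cochaperone of TRiC, at -0.01.

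Of the feedback on tubulin mRNA, all 12 listed genes (Ttc5, Scaper and CCR4-NOT subunits) were tested, with 7 higher, 5 lower and 1 higher at an unadjusted p under 0.05 (median 0.050). Both shares, 58.3% and 8.33%, were for a list of 12 near those of all tested genes (63.7% and 12.0%). The median was above the 0.026 of all tested genes and near the 0.051 of the abundant genes. Of those abundant genes, to which 6 of the 12 belong, 83.1% were higher and 28.8% higher at that level. The 1 gene of the list at that level was Cnot9, at 57.1 ± 1.69 TPM in control and 62.2 ± 1.61 TPM in exposed dishes (log2 fold change 0.12, adjusted p = 0.142). Cnot11, the CCR4-NOT subunit that Scaper contacts in this feedback, was at 0.07 (adjusted p = 0.340) and Cnot2 at 0.06 (adjusted p = 0.347).

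The gamma-tubulin ring complex and its recruiters, with the augmin subunits, gave 15 of 20 genes higher, 5 lower and 2 higher at an unadjusted p under 0.05 (median 0.049). These 2 of 20 are a share near the 12.0% of all tested genes, and the 75.0% higher compares with 63.7%. Tubgcp2, a core subunit of the ring, was at 35.3 ± 0.471 TPM in control and 38.4 ± 0.930 TPM in exposed dishes without overlap (log2 fold change 0.12, adjusted p = 0.139). Haus1 of augmin was at 0.14 (adjusted p = 0.291) and pericentrin, Pcnt, at 0.09 (adjusted p = 0.382), both with overlapping groups.

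Of 16 listed microtubule destabilizers and severing enzymes 10 were tested, with 7 higher, 3 lower and 3 higher at an unadjusted p under 0.05 (median 0.062), against 63.7% higher and 12.0% higher at that level among all tested genes. They included the depolymerizing kinesin Kif2a (log2 fold change 0.14, adjusted p = 0.136) and the AAA ATPase Fignl1 (0.11, adjusted p = 0.173). The third was the mitotic kinesin Kif18b (0.11, adjusted p = 0.203). In these 3 of the 10 every exposed dish lay above every control dish, against 8.01% of all tested genes. Of 23 stabilizers and end-binding proteins 17 were tested, with 10 higher, 7 lower and 3 higher at that level (median 0.035), which is 58.8% and 17.6% against the same 63.7% and 12.0%. Map4, the main microtubule-associated protein outside neurons, was at 95.5 ± 2.72 TPM in control and 103.7 ± 2.00 TPM in exposed dishes (0.12, adjusted p = 0.131). The spindle factor Tpx2 was at 0.07 (adjusted p = 0.217) and Map2, low in these cells at 6.33 ± 0.956 TPM in control dishes, at 0.26 (adjusted p = 0.264) with overlap.

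Of 26 listed enzymes that modify tubulin 15 were tested, with 7 higher, 8 lower, and 2 higher and 1 lower at an unadjusted p under 0.05 (median -0.009). This is 46.7% higher and 13.3% higher at that level, against 63.7% and 12.0% of all tested genes. Ttll12, a member of the tyrosine ligase-like family, was at 53.3 ± 1.24 TPM in control and 56.9 ± 0.722 TPM in exposed dishes (log2 fold change 0.09, adjusted p = 0.174). Atat1, the acetyltransferase of alpha-tubulin, was at 9.23, 8.29, 8.65 and 8.45 TPM in control and 8.05, 7.84, 7.75 and 7.78 TPM in exposed dishes, every exposed dish below the controls (-0.12, adjusted p = 0.273). Svbp, the partner of the enzymes that remove the terminal tyrosine, was at 0.11 (adjusted p = 0.303).

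Markers of mitosis, when cells build the spindle, were all higher, 12 of 12, of which 4 (33.3%) at an unadjusted p under 0.05 (median 0.054). Of the 12, 11 have a mean of at least 50 TPM, and among such genes 83.1% were higher, 28.8% were higher at that level and the median was 0.051, so the list was near its background. Ccnb2 was at 130.5 ± 2.30 TPM in control and 137.0 ± 0.808 TPM in exposed dishes (log2 fold change 0.07, adjusted p = 0.191), Ccnb1 was at 0.10 (adjusted p = 0.191) and Top2a at 0.07 (adjusted p = 0.243). Their part in the tubulin values was not tested.

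**Figure D5:**
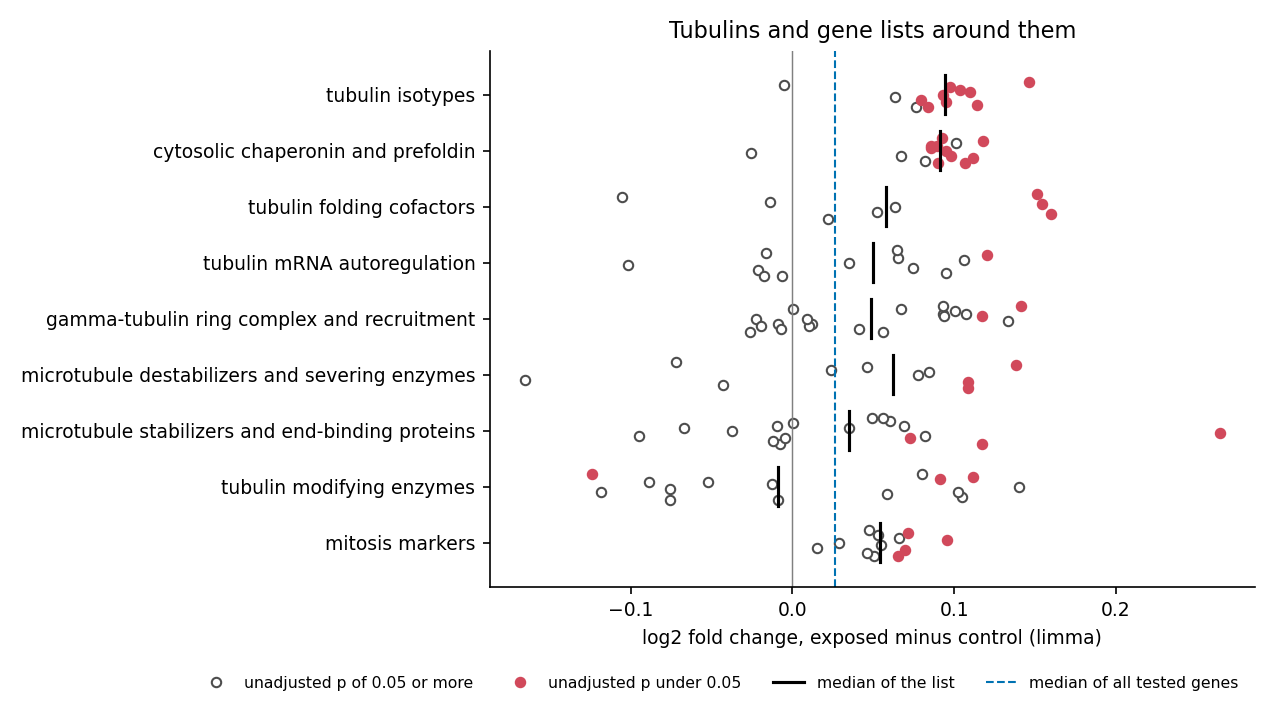
Log2 fold change (exposed minus control, limma) of each tested gene in 9 lists, 1 point per gene, filled where the unadjusted p is under 0.05, with a black line at the median of the list and a dashed line at the median of all tested genes (0.026). Tubulin isotypes (0.094) and the chaperonin with prefoldin (0.091) have the highest medians of these lists, and tubulin modifying enzymes (-0.009) the lowest.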

How the data were processed

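The authors made stranded mRNA libraries from 4 control and 4 exposed AML12 dishes and sequenced paired 150-base reads on a NovaSeq instrument. The authors deposited TPM values per gene, and the submitters' processing notes name Trimmomatic 0.39, STAR 2.7.4a, RSEM 1.3.3 and mm10. The annotation is not given in the sources used here. TPM keeps no depth, so counting errors are unknown, and no count test was run.

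Genes with at least 1 TPM in at least 4 dishes (12122) were tested on log2(TPM + 1) with limma 3.58.1 (lmFit, eBayes with trend) in R 4.3.3, two-sided, with Benjamini-Hochberg adjustment over all of them. The scale understates differences of low genes. Shares and sums were computed per dish. Sequences came from GENCODE M21 and RefSeq tables and were aligned with Biopython 1.88.

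The genes and lists were chosen with earlier results of these data known. All listed tubulins and cofactors, and the 3 genes with the smallest p of each other list, are named. Replicate numbers come from the labels. Correlations of deviations between control and exposed dishes of the same number were -0.042 to 0.026, and -0.15 to 0.16 between those of different numbers. No effect shared by dishes of the same number was visible, but this cannot tell whether the dishes were handled in pairs.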

Additional observations from a re-analysis of the deposited data

Results flagged for a closer look

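Tubulin levels, sums and shares, the alpha to beta ratio and the mitochondrial share of TPM gave 64 groups of 4 dishes. In 4 of these groups 1 dish lay far from the other 3 by Dixon's test at the 95% level, where chance gives about 3.2. Tubb4b was at 896.25 TPM in the second exposed dish, with the other exposed dishes at 848.9 to 853.5 TPM. The share of Tuba1a in alpha-tubulin TPM was 9.15% in the second control dish and 8.95 to 8.97% in the other controls. Tubb5 held 41.4% of beta-tubulin TPM in the first control dish and 40.8 to 40.9% in the others. Tubb6 held 10.4% in the first exposed dish and 10.7 to 10.8% in the others.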

How the results depend on the processing

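Across the alternatives run, 303 values kept their direction and their side of the threshold or moved little, 9 moved further and 3 changed sign. The directions of the 10 listed tubulins held in every alternative that fitted them singly, and where near-identical genes were summed, the sums were higher. Many alternatives could not change a direction. The filter, trend and replicate-block settings leave each log2 fold change as it was, and a pseudocount hardly moves genes this abundant. In 8 of the 10 every exposed dish lay above every control dish, so leaving out 1 dish could not reverse them. The 303 values include such fixed outcomes and are no check of the directions. The lowest adjusted p of any tubulin was 0.109 to 0.277. The count of genes with an adjusted p under 0.05, 0 with TPM as deposited (limma, with 1894 at an unadjusted p under 0.05), was 1 after median-of-ratios or upper-quartile scaling, 1 with at least 1 TPM required in every dish, 1 without the mean-variance trend and 2 with a pseudocount of 5. It ranged from 0 to 2 with single dishes left out, reaching 2 without the second control dish and 1 without the third. The median log2 fold change of the 12 tubulins was 0.061 after upper-quartile scaling and 0.065 without mitochondrial genes, against 0.094. The log2 fold change of Tubb4a ranged from -0.0308 to 0.031 with single dishes left out and was above 0 without the first control dish (0.031) and without the first (0.0202) or second (0.0037) exposed dish. With the replicate block, 8 in place of 9 tubulins had an unadjusted p under 0.05 and 1889 of all genes did, and the lowest adjusted p of a tubulin was 0.214. Whether the replicate numbers pair the dishes is not known. The cause of these shifts was not tested. Depth is unknown, and 4 dishes a group left differences near 0.1 on the log2 scale above an adjusted p of 0.05.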
